A study of Mus musculus with 12 samples.

Results

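The 36 genes described here encode proteins of the sarcomere, the contractile unit of striated muscle, and of the Z-disc, the plate that anchors its actin filaments. They form a list of gene names with no threshold on a measured value, drawn up with earlier results of these data known, and each of the 36 was found once by its gene symbol among the 40594 genes of the count table. In a sarcomere, thin filaments of actin, tropomyosin and troponin slide past thick filaments of myosin. Calcium binding to troponin opens the actin sites to myosin heads, titin spans from the Z-disc to the M-band as a molecular spring, and the Z-disc couples neighbouring sarcomeres and carries proteins that sense load. In ventricular muscle these transcripts are among the most abundant in the cell, and mutations in many of them cause inherited cardiomyopathies.

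RNA was sequenced from the right ventricle (RV) and left ventricle (LV) of adult mouse hearts of 2 genotypes, WntLOF (labelled as Wnt loss of function; the Wnt pathway is a cell communication route whose canonical branch acts through beta-catenin) and control. The 12 libraries form 4 groups of 3: WntLOF RV, WntLOF LV, control RV and control LV. The labels name neither the altered gene, nor the promoter or cell type that drives the alteration, nor the strain. No label ties a library to an animal, and the number of animals per group is not given, so p-values here measure the spread between libraries. Libraries of a group differed in a Y-linked gene, as given below, so they did not all come from a single animal. Total counts ran from 13274922 to 19173391 per library, and mitochondrially encoded genes took 4.62% to 8.29% of them. Levels are given as normalized CPM (counts scaled to a common library total, with the edgeR trimmed mean adjustment TMM), called CPM below, with the libraries of a group in the order of their numbers 1 to 3.

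Some libraries went against their labels or stood close to a library of another group. Wif1, Aqp4 and Kcnd2 separate the ventricles in control hearts, and for all 3 the library labelled WntLOF LV 1 was above each other library labelled LV, while the library labelled WntLOF RV 1 was below each other library labelled RV. Wif1, which encodes a secreted Wnt inhibitor, had 2.55, 14.2 and 13.2 CPM in the WntLOF RV, 13.5, 1.65 and 1.63 CPM in the WntLOF LV, 12, 12.3 and 18.4 CPM in the control RV and 2.62, 2.69 and 3.18 CPM in the control LV. For 17 autosomal genes the libraries split by a gap of at least 8-fold, called on above it and off below it. Off here need not mean absent. Of these 17 genes, control LV 2 shared the state of 17 with WntLOF LV 1 and of 17 with WntLOF RV 1, and of 13 with control RV 2. Ctnnb1, which encodes beta-catenin, had 425, 454 and 352 CPM in the WntLOF RV, 395, 532 and 409 CPM in the WntLOF LV, 560, 523 and 511 CPM in the control RV and 598, 426 and 509 CPM in the control LV. Its RV groups did not overlap and its LV groups did, with control LV 2 and control LV 3 inside the WntLOF range. In every group the library numbered 3 was the only one with the Y-linked gene Ddx3y above 1 CPM. Libraries of a group also differed in the 17 on and off states. Control LV 1 and control LV 2 shared 8, control RV 2 and control RV 3 shared 3, and WntLOF LV 1 and WntLOF LV 2 shared 12. The results below use the labels as given, with values without the WntLOF libraries numbered 1 and control LV 2 where a result rests on them.

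Cardiomyocyte markers outside the 36 genes, 8 of 8 detected, summed to 70917 to 76498 CPM in the WntLOF RV, 71139 to 76206 CPM in the WntLOF LV, 71657 to 77438 CPM in the control RV and 71247 to 78068 CPM in the control LV, so the labelled heart muscle was present in every group at overlapping levels. Endothelial markers summed to 717 to 884 CPM in the WntLOF LV and 894 to 968 CPM in the control LV, 2 ranges that do not overlap, and all 7 of these markers had a log2 fold change below 0. Skeletal muscle markers summed to 26.0 to 50.5 CPM in the WntLOF LV and 56.4 to 57.5 CPM in the control LV, again without overlap, and 1 of the 12 was at 0 in all libraries. Erythroid markers summed to 164 to 247 CPM in the control RV and 110 to 138 CPM in the control LV, likewise without overlap. In the same comparison of control hearts, endothelial markers summed to 782 to 842 CPM in the RV and 894 to 968 CPM in the LV, and skeletal muscle markers to 34.7 to 40.9 CPM in the RV and 56.4 to 57.5 CPM in the LV, both without overlap. In the WntLOF RV, library 3 carried the atrial genes Myl7 at 10.2 CPM, Myl4 at 10.7 CPM and Sln at 1.85 CPM, against at most 1.26, 2.86 and 0.167 CPM in the 11 other libraries. All 6 atrial markers together summed to 47.2 CPM in that library, against 85.6 CPM in WntLOF RV 1 and 72.2 CPM in WntLOF LV 3. Mybphl, another of the 6, was higher in WntLOF RV 2 (1.75 CPM) than in WntLOF RV 3 (1.28 CPM). The part of these markers in the results below was not tested. In bulk tissue, fewer muscle cells and less RNA per muscle cell cannot be told apart.

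Promoter sequence was a feature that the choice of genes did not use. RefSeq promoters (build GRCm38.p6) were matched by symbol for 30 of the 36 genes, with 41 start sites in all, and the 250 bases before each start were searched on both strands. The entries not matched were Cryab, Tcap, Lmod3, Trim55, Myom2 and Nexn. A CArG box, the element that serum response factor binds, lay in 8 of the 41 windows (19.5%), against 1.47% of all 32851 promoter windows. The 6 genes, of the 30 matched, were Actc1, Myl3, Myom1, Ldb3, Nebl and Fhl2. Windows of a gene can overlap and count a box again. The same Ldb3 box lay 35 bases before start 1 and 109 bases before start 2. A MEF2 site lay in 6 of the 41 windows (14.6%), against 2.92% of all windows, in Ttn, Mybpc3, Myoz2, Synpo2l and Fhl2. No CArG box overlapped a MEF2 site in these windows. The letters CATTCC, a core bound by TEAD factors, lay in 24.4% of the windows of these genes and 12.6% of all windows, the E-box letters CANNTG in 75.6% and 66.2%, TATAAA in 12.2% and 12.4%, and the heat shock letters GAANNTTC in 2.44% and 6.69%. A match is a description of the letters and not evidence of binding.

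Sequences are printed 5′ to 3′ on the gene's strand, up to the first base that GENCODE places in an exon, and show the CArG box in capitals for 3 genes. Actc1 had the smallest unadjusted p of the 36 genes for a WntLOF effect that differs between ventricles (chr2:114052888-114053125, minus strand, box beginning 47 bases before the start). Myl3 (chr9:110763428-110763645, plus strand, 85 bases before the start) and Ldb3 (chr14:34588683-34588931, minus strand, 35 bases before the start) represent the thick filament and the Z-disc.
Actc1: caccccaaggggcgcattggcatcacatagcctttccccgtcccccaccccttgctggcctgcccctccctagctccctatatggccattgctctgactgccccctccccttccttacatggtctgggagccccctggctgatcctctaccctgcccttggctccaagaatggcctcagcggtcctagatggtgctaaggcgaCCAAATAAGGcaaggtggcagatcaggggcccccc
Myl3: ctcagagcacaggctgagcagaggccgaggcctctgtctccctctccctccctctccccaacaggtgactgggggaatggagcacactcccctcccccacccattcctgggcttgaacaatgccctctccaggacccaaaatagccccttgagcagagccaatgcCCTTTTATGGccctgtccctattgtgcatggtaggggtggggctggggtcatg
Ldb3: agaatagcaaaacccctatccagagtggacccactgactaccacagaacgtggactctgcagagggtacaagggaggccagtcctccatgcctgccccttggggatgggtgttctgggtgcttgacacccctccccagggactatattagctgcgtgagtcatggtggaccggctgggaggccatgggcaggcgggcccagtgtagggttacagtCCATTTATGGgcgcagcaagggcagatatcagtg

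The next lines show the MEF2 site in capitals. Synpo2l, which of the 36 genes had the smallest adjusted p between the ventricles of control hearts when the control libraries alone were paired by number, has 2 annotated starts, each with its own site, at chr14:20668355-20668604 and chr14:20664575-20664824 (both minus strand, 109 and 144 bases before the start). Ttn (chr2:76982548-76982797, minus strand, 166 bases before the start) had the most counts of the 36 genes, and Mybpc3 (chr2:91117894-91118143, plus strand, 90 bases before the start) had non-overlapping groups between the ventricles of control hearts.
Synpo2l start 1: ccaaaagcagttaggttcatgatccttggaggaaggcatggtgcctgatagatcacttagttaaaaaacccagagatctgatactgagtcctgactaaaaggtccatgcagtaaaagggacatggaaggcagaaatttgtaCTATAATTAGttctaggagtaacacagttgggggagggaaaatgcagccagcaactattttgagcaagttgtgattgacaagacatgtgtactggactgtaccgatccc
Synpo2l start 2: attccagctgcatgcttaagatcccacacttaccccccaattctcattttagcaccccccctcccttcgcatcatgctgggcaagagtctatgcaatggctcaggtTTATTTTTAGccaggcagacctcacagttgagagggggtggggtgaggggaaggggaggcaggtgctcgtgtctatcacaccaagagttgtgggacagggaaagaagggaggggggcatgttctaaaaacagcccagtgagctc
Ttn: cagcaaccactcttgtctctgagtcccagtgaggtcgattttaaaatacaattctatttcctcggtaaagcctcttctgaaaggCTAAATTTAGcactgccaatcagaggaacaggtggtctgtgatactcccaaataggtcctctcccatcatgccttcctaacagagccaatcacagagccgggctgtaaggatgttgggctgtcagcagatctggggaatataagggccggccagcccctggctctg
Mybpc3: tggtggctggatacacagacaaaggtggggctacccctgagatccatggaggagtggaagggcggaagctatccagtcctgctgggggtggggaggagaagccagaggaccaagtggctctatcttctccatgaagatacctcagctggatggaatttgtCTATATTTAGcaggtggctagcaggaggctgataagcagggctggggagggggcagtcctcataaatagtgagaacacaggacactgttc

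The 36 genes together took 14.6% to 16.1% of all counts in a library, and Ttn alone took 8.02% to 9.17%. Per length of exon the order was different. Length here counts every annotated exon base of a gene (1618 for Actc1, 6485 for Tpm1, 7752 for Tnnt2), which can exceed the length of a single transcript. The order depends on this choice. Without division by length, Tpm1 had a median of 9193 CPM, above Actc1 at 7199 CPM. Actc1 was highest, with a median of 4449 CPM per kb over the 12 libraries, followed by Tcap at 2129, Myl3 at 1947, Tnni3 and Tnnc1 at 1863 each, Myl2 at 1660, Mybpc3 at 1570 and Tpm1 at 1418 CPM per kb. Ttn stood at 745 CPM per kb. The levels of Tcap, Myl3, Tnni3, Tnnc1, Myl2, Mybpc3 and Tpm1 overlapped between neighbours in this order when single libraries were compared, whereas the lowest library of Actc1, at 3829 CPM per kb, was above the highest library of each of the other genes. At the bottom were Synpo2l at 24.6 CPM per kb and Pdlim3 at 2.19 CPM per kb. The exons of 13 of the 36 genes overlap those of another annotated gene, with the largest shares in Tmod1 (32.6% of exon length), Trim54 (26.6%), Cmya5 (21.7%) and Cryab (17%, shared with Hspb2 on the opposite strand). Since the strand setting of the counting is not given, counts of such genes may include reads of the neighbour.

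**Figure D1:**
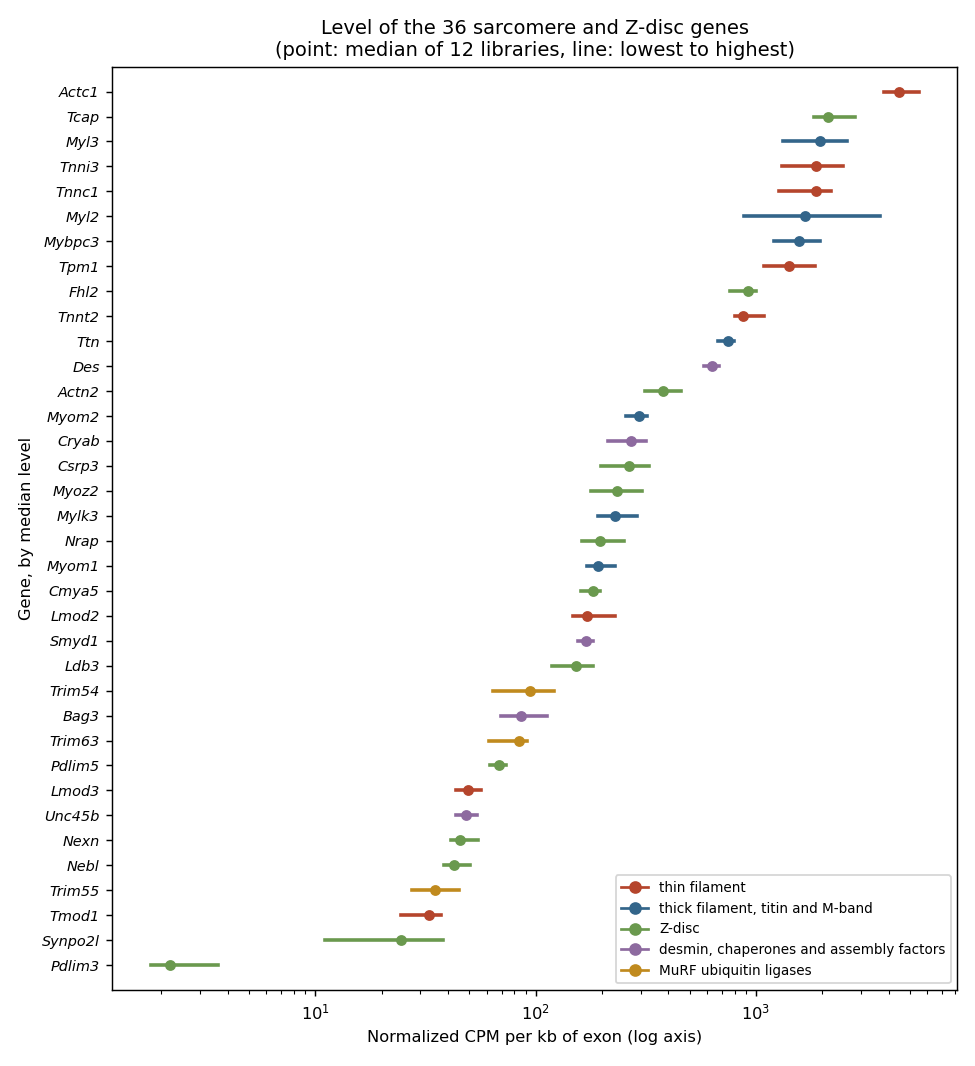
Level of each of the 36 genes in normalized CPM per kb of exon on a log axis, with the median of 12 libraries as a point and the lowest to highest library as a line, coloured by role. Actc1 leads at a median of 4449 CPM per kb, Myl2 and Synpo2l have the longest lines, and Pdlim3 is lowest at 2.19 CPM per kb.

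The share of counts from the 36 genes was 15.5% ± 0.432 in the WntLOF RV and 15.6% ± 0.148 in the control RV, and 14.8% ± 0.234 in the WntLOF LV and 15.4% ± 0.703 in the control LV (SD, n = 3 each). The 4 comparisons between groups gave two-sided exact permutation p-values of 0.90 for WntLOF against control in the RV, 0.300 for WntLOF against control in the LV, 0.200 for RV against LV in WntLOF hearts and 0.80 for RV against LV in control hearts, or 0.90, 0.60, 0.60 and 0.90 after Benjamini-Hochberg adjustment over the 4. The smallest p that 3 against 3 can give is 0.10, so this test could not have passed 0.05.

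By the median, the 36 genes varied more from library to library than all genes of at least 100 CPM, and slightly less than all genes tested. No set matched to them in abundance was compared. The median within-group SD was 0.18 on the log2 scale, against 0.20 over all 15494 genes tested and 0.12 over the 1505 genes with a mean of at least 100 CPM, to which 34 of the 36 belong. Smyd1, Myom2 and Des had an SD of 0.06, and Ttn and Unc45b of 0.07. The highest library was less than 1.5 times the lowest for 18 genes, and at least 2 times the lowest for 3, namely Myl2 (4.16-fold), Synpo2l (3.39-fold) and Pdlim3 (2.02-fold). The within-group SD of Myl2, 0.54, was exceeded by 16 of the 1505 abundant genes (1.06%).

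**Figure D2:**
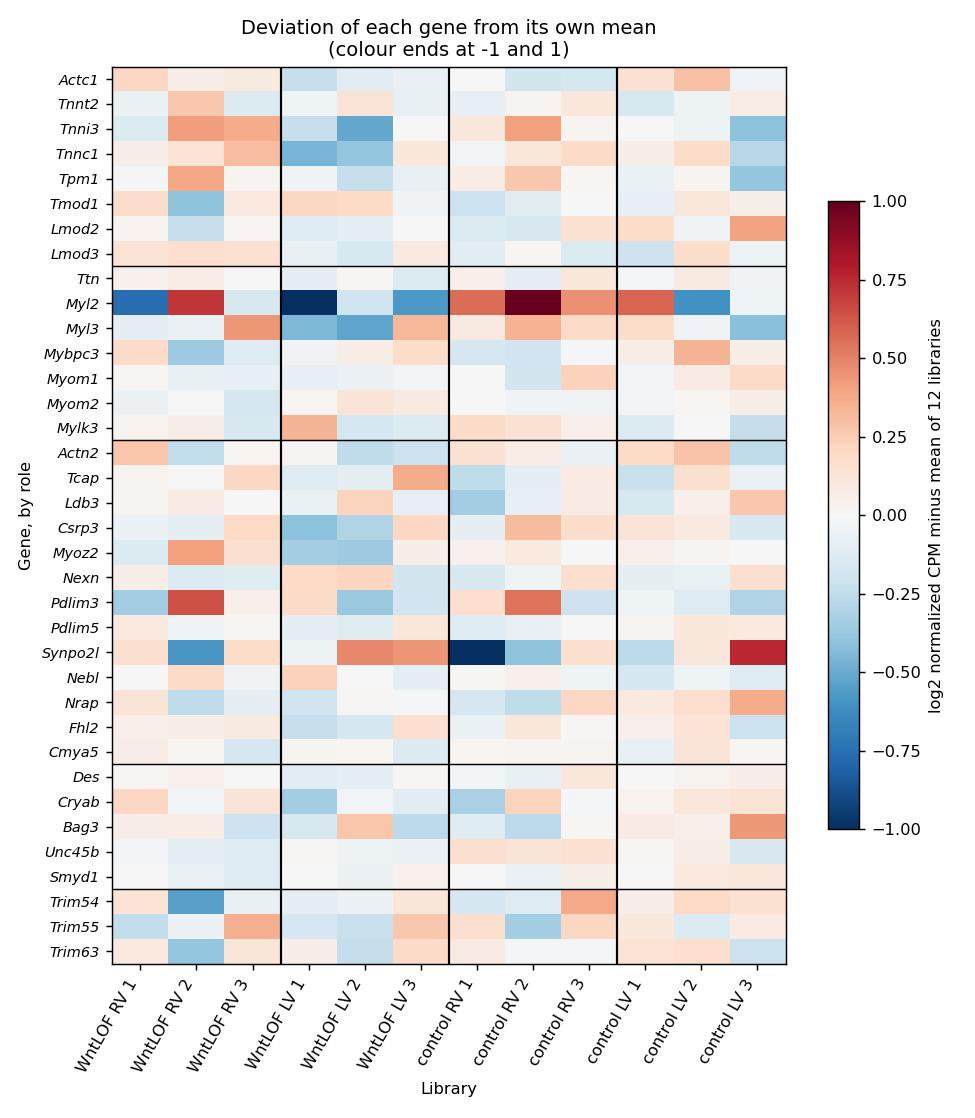
Deviation of the log2 normalized CPM of each gene (rows, in blocks by role) from its mean over the 12 libraries (columns, in 4 groups of 3), with red above and blue below the mean. Myl2 and Synpo2l carry the strongest colours in the 2 control groups and Myl2 in the 2 WntLOF groups, while rows such as Ttn, Des and Smyd1 are close to white.

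None of the 36 genes passed an adjusted p of 0.05 for WntLOF against control in either ventricle. The test was edgeR's quasi-likelihood test over all 15494 genes with Benjamini-Hochberg adjustment, and it called 0 genes (0% of all genes) in each ventricle, as DESeq2 also did. At an unadjusted p under 0.05, 3 of the 36 genes were found in the RV, against 2.70% of all genes, and 2 of the 36 in the LV, against 2.85% of all genes (DESeq2 gave 3 of the 36 in each, against 1.96% of all genes in the RV and 2.09% in the LV). The median log2 fold change of the 36 genes was 0.01 in the RV, with 20 of 36 above 0 and 16 below, against 50.3% and 49.7% of all genes. In the LV it was -0.08, with 26 of 36 below 0 against 50.9% of all genes. Without control LV 2 it was -0.04, with 21 of 36 below 0. With total counts in place of TMM it was -0.04, with 22 of 36 below 0, while the median of all genes moved to 0.03. With the labels as given, the data limited the size of any difference for most members. The intervals do not cover an error in the labels. The 95% interval of the fold change lay within 1.5-fold either way for 33 of 36 genes in the RV and 33 of 36 in the LV, against 62.5% and 62.1% of all genes, and within 2-fold for 34 and 35 of 36, against 83.6% and 83.7%. Endothelial and skeletal muscle marker sums were also lower in the WntLOF LV, as given above.

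**Figure D3:**
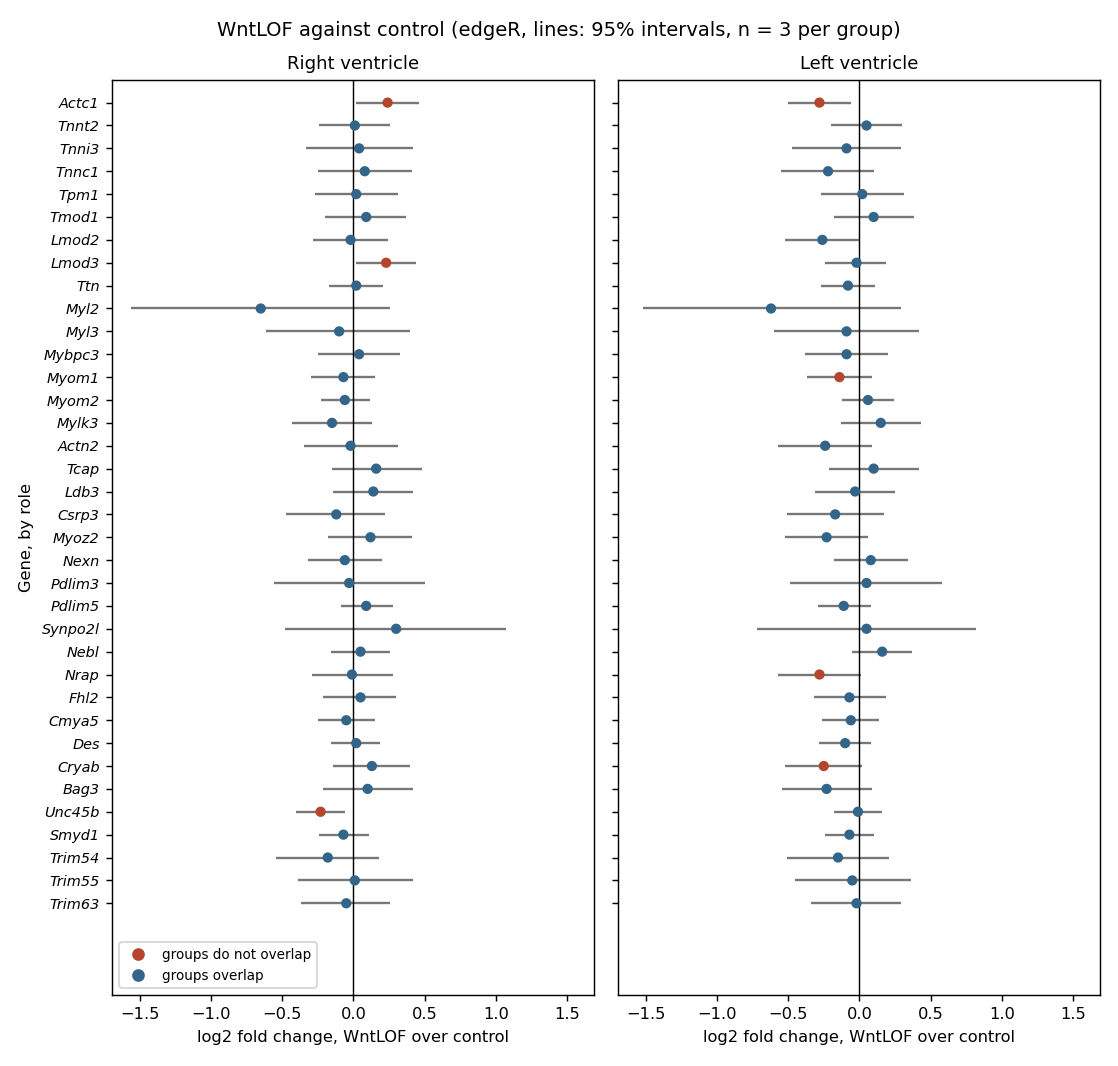
Log2 fold change of WntLOF over control for each of the 36 genes in the RV (left panel) and LV (right panel), as points with 95% intervals from edgeR, n = 3 per group. Red points mark genes whose groups do not overlap, which are Actc1, Lmod3 and Unc45b in the RV and Actc1, Nrap, Cryab and Myom1 in the LV, and Myl2 has the widest intervals.

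Actc1 stood out among the thin filament genes. It encodes cardiac alpha-actin, the main actin of the adult heart. Actc1 had 8403, 7619 and 7747 CPM in the WntLOF RV, 6195, 6715 and 6922 CPM in the WntLOF LV, 7290, 6411 and 6432 CPM in the control RV and 8069, 8890 and 7107 CPM in the control LV. In the RV all 3 WntLOF libraries were above all 3 control libraries, and in the LV all 3 WntLOF libraries were below all 3 control libraries. The log2 fold change was 0.24 (SE 0.10, adjusted p = 1.0, unadjusted p = 0.0355) in the RV and -0.28 (SE 0.10, adjusted p = 0.999, unadjusted p = 0.0169) in the LV, by edgeR's test. The difference of the WntLOF effect between RV and LV was 0.52 (SE 0.15, adjusted p = 1.0, unadjusted p = 0.00318), the smallest unadjusted p of the 36 genes in that comparison. Of all genes tested, 44 (0.284%) had non-overlapping groups in opposite directions in the 2 ventricles, and Actc1 was the 1 sarcomere member among them. The difference was 0.43 (unadjusted p = 0.0220, edgeR) without the WntLOF libraries numbered 1. It was 0.35 (unadjusted p = 0.0592, edgeR) without those and control LV 2. With the labels of WntLOF RV 1 and WntLOF LV 1 exchanged, the genotype groups of Actc1 would overlap in both ventricles. Seen between ventricles, Actc1 was 0.26 higher on the log2 scale in the RV than in the LV of WntLOF hearts (SE 0.10, adjusted p = 1.0, edgeR). The RV over LV difference in control hearts was -0.26 (SE 0.10, adjusted p = 0.922, edgeR), and neither passed.

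None of the troponin genes had genotype groups that did not overlap. Troponin T (Tnnt2) binds tropomyosin, troponin I (Tnni3) inhibits contraction at low calcium and troponin C (Tnnc1) binds calcium. Tnni3 had 3492, 5123 and 4976 CPM in the WntLOF RV, 3272, 2699 and 3843 CPM in the WntLOF LV, 4162, 5119 and 3915 CPM in the control RV and 3842, 3720 and 2886 CPM in the control LV. Tnnc1 had 1910, 2018 and 2269 CPM in the WntLOF RV, 1323, 1403 and 1969 CPM in the WntLOF LV, 1796, 1985 and 2095 CPM in the control RV and 1903, 2075 and 1507 CPM in the control LV. Tnnt2 had 6680, 8413 and 6344 CPM in the WntLOF RV, 6794, 7638 and 6646 CPM in the WntLOF LV, 6618, 7123 and 7518 CPM in the control RV and 6254, 6743 and 7360 CPM in the control LV. The genotype groups overlapped in both ventricles for all 3 genes. Between ventricles, the RV was higher than the LV in WntLOF hearts by 0.47 for Tnni3 (SE 0.17, unadjusted p = 0.0182) and by 0.40 for Tnnc1 (SE 0.15, unadjusted p = 0.0209), each with an adjusted p of 1.0 by edgeR and with overlapping groups. In control hearts the RV over LV difference of Tnni3 was 0.34 (SE 0.17, adjusted p = 0.922, edgeR), and the 3 RV libraries were above the 3 LV libraries. Tpm1, which encodes the alpha-tropomyosin that covers the myosin sites on actin, is named here after its values were seen. Tpm1 had 9094, 11997 and 9350 CPM in the WntLOF RV, 8948, 7801 and 8714 CPM in the WntLOF LV, 9662, 11049 and 9292 CPM in the control RV and 8742, 9338 and 7023 CPM in the control LV. Its RV over LV difference was 0.26 in WntLOF hearts and 0.26 in control hearts (SE 0.13 each, adjusted p = 1.0 and 0.922, edgeR), and the groups did not overlap in WntLOF hearts.

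The remaining thin filament genes control filament length. Tropomodulin 1 (Tmod1) caps the pointed end, and leiomodins 2 and 3 (Lmod2, Lmod3) promote nucleation or elongation there. Lmod3 had 122, 125 and 123 CPM in the WntLOF RV, 105, 99.9 and 118 CPM in the WntLOF LV, 102, 112 and 101 CPM in the control RV and 95.9, 125 and 107 CPM in the control LV. Lmod2 had 347, 291 and 345 CPM in the WntLOF RV, 312, 319 and 343 CPM in the WntLOF LV, 311, 306 and 378 CPM in the control RV and 387, 333 and 451 CPM in the control LV. All WntLOF RV libraries of Lmod3 were above the control RV libraries, with a log2 fold change of 0.23 (SE 0.10, adjusted p = 1.0, unadjusted p = 0.0368, edgeR), while Lmod2 had -0.26 in the LV (SE 0.12, adjusted p = 0.999, unadjusted p = 0.0465, edgeR) with overlapping groups, and -0.14 without control LV 3. The RV groups of Lmod3 would overlap with WntLOF LV 1 (105 CPM) in place of WntLOF RV 1, as control RV 2 had 112 CPM. The Tmod1 groups overlapped in both ventricles. As a group, 7 of the 8 thin filament genes had a log2 fold change above 0 in the RV and 3 of 8 in the LV, with medians of 0.06 and -0.06, and 0 of 8 passed the adjusted test in either.

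Among the thick filament genes, Myl2 varied most. It encodes the ventricular regulatory light chain of myosin. Myl2 had 2047, 5700 and 3098 CPM in the WntLOF RV, 1716, 3024 and 2330 CPM in the WntLOF LV, 5119, 7131 and 4771 CPM in the control RV and 5197, 2275 and 3376 CPM in the control LV. The libraries of every group spread widely, and both genotype comparisons had overlapping groups, with log2 fold changes of -0.65 in the RV (SE 0.41, adjusted p = 1.0) and -0.62 in the LV (SE 0.40, adjusted p = 0.999, edgeR). The RV over LV difference was 0.62 in WntLOF hearts (SE 0.40, adjusted p = 1.0) and 0.65 in control hearts (SE 0.41, adjusted p = 0.922, edgeR). The 95% interval of the genotype difference ran from -1.56 to 0.26 in the RV and from -1.52 to 0.29 in the LV, so both a lower and a somewhat higher level lie within it. Leaving out 1 library at a time moved the fold change from -1.14 (without WntLOF RV 2) to -0.37 (without WntLOF RV 1) in the RV and from -0.86 to -0.26 (without control LV 1) in the LV.

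The ratio of Myl2 to Myl3, the essential light chain that sits on the same myosin neck, split the libraries by a gap. It was 0.560, 1.53 and 0.586 in the WntLOF RV, 0.600, 1.12 and 0.473 in the WntLOF LV, 1.23, 1.43 and 1.07 in the control RV and 1.17, 0.598 and 1.15 in the control LV. So 5 libraries lay from 0.473 to 0.600 and 7 from 1.07 to 1.53. The 5 were both ventricles of the WntLOF libraries numbered 1 and 3, and control LV 2, the library that shared its on and off states with the WntLOF libraries numbered 1. Both WntLOF libraries numbered 2 lay in the higher range. The ratio was examined after the values of Myl2 had been seen, and it is given as a description.

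Ttn encodes titin, and its highest library was 1.18 times its lowest, against 1.63 times for Mybpc3 and 1.95 times for Myl3. Ttn had 89612, 91526 and 86520 CPM in the WntLOF RV, 81658, 87494 and 78842 CPM in the WntLOF LV, 89984, 81436 and 93237 CPM in the control RV and 85519, 92377 and 84920 CPM in the control LV. Mybpc3 had 7375, 5009 and 5888 CPM in the WntLOF RV, 6275, 6735 and 7306 CPM in the WntLOF LV, 5741, 5653 and 6378 CPM in the control RV and 6694, 8152 and 6726 CPM in the control LV. Mybpc3 encodes the cardiac myosin binding protein C, which sets how many myosin heads can reach actin. The genotype groups of both genes overlapped in both ventricles. In control hearts the 3 RV libraries of Mybpc3 were below the 3 LV libraries (-0.28, SE 0.13, adjusted p = 0.922, edgeR), and in WntLOF hearts the groups overlapped (-0.15, SE 0.13, adjusted p = 1.0, edgeR). The role also holds Myl3, the M-band crosslinkers Myom1 and Myom2, and Mylk3, the kinase that phosphorylates the regulatory light chain. Of these, Myom1 had all WntLOF LV libraries, at 1922 to 1991 CPM, below all control LV libraries, at 1998 to 2322 CPM. These groups would overlap with WntLOF RV 1 (2062 CPM) in place of WntLOF LV 1. Of the 7 genes of this role, 2 were above 0 in the RV and 2 in the LV, with medians of -0.07 and -0.09, and 0 passed.

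The Z-disc genes code for the actin crosslinker alpha-actinin 2 (Actn2), the titin cap telethonin (Tcap), muscle LIM protein (Csrp3), a load-associated Z-disc protein, and calsarcin 1 (Myoz2), which binds calcineurin. Actn2 had 1720, 1193 and 1436 CPM in the WntLOF RV, 1440, 1188 and 1223 CPM in the WntLOF LV, 1574, 1489 and 1353 CPM in the control RV and 1629, 1728 and 1185 CPM in the control LV. Tcap had 2113, 2065 and 2381 CPM in the WntLOF RV, 1884, 1939 and 2677 CPM in the WntLOF LV, 1733, 1938 and 2179 CPM in the control RV and 1767, 2312 and 1971 CPM in the control LV. Csrp3 had 670, 653 and 803 CPM in the WntLOF RV, 525, 568 and 807 CPM in the WntLOF LV, 654, 871 and 790 CPM in the control RV and 763, 746 and 629 CPM in the control LV. The genotype groups of these 3 genes overlapped in both ventricles. Myoz2 had 711, 1039 and 875 CPM in the WntLOF RV, 616, 608 and 815 CPM in the WntLOF LV, 807, 836 and 781 CPM in the control RV and 809, 798 and 781 CPM in the control LV. The Myoz2 RV over LV difference in WntLOF hearts was 0.36 (SE 0.14, adjusted p = 1.0, unadjusted p = 0.0181, edgeR), with overlapping groups. Nrap, an actin-anchoring protein used in myofibril assembly, was the Z-disc gene nearest to a genotype difference. Nrap had 1167, 898 and 1001 CPM in the WntLOF RV, 933, 1081 and 1062 CPM in the WntLOF LV, 952, 895 and 1232 CPM in the control RV and 1148, 1199 and 1383 CPM in the control LV. All WntLOF LV libraries were below all control LV libraries (-0.28, SE 0.13, adjusted p = 0.999, edgeR), and the RV groups overlapped. Its LV groups would overlap with WntLOF RV 1 (1167 CPM) in place of WntLOF LV 1, as control LV 1 had 1148 CPM. Over the 13 Z-disc genes the median log2 fold change was 0.05 in the RV and -0.06 in the LV, and 0 of 13 passed. The other 7, Ldb3, Nexn, Pdlim3, Pdlim5, Nebl, Fhl2 and Cmya5, ran from -0.06 to 0.14 in the RV and from -0.11 to 0.16 in the LV.

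Synpo2l encodes a Z-disc protein of the synaptopodin family, and its larger differences were between ventricles. Synpo2l had 116, 69.2 and 118 CPM in the WntLOF RV, 100, 145 and 141 CPM in the WntLOF LV, 51.6, 78.5 and 116 CPM in the control RV and 86.6, 112 and 175 CPM in the control LV. The groups overlapped in every comparison, yet within each numbered control pair the RV was the lower library. The RV over LV difference was -0.60 in control hearts (SE 0.35, adjusted p = 0.922) and -0.35 in WntLOF hearts (SE 0.35, adjusted p = 1.0), both by edgeR. Single libraries moved it: in control hearts it was -0.94 when control RV 3 was left out, -0.28 when control LV 3 was, and -0.36 when control RV 1 was. In WntLOF hearts it ran from -0.50 (without WntLOF LV 1) to -0.14 (without WntLOF RV 2). With the replicate number as a block and the control libraries alone, the control difference was -0.62 (SE 0.07, adjusted p = 1.72e-04), and Synpo2l was 1 of 2 members called, both lower in the RV, among 326 genes called (2.19% of all genes), of which 183 were lower (1.23%). Without the block, the control libraries alone gave 9 called genes (0.0604%) and 0 members. With the block fitted on all 12 libraries, 0 genes and 0 members were called, with Synpo2l again at -0.62 but with a wider SE of 0.22. Without the control pair numbered 2 it was -0.67 (SE 0.07, adjusted p = 0.0121). The number pairs the ventricles only through the data: deviations of equally numbered RV and LV libraries from their group means had correlations over genes of 0.191, 0.197 and 0.594 in WntLOF hearts and 0.411, 0.290 and 0.517 in control hearts. In control hearts no unequal numbers exceeded 0.0727, but in WntLOF hearts unequal numbers 1 and 2 had 0.201 and 0.133. By this measure the equal numbers 1 and 2 did not stand apart there. By the 17 on and off states they did, as the WntLOF pairs numbered 1, 2 and 3 shared 17, 16 and 17. WntLOF LV 1 shared 11 with WntLOF RV 2, and WntLOF LV 2 shared 12 with WntLOF RV 1. The control pairs shared 17, 13 and 16, so by these states control pair 2 was the doubtful pair.

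Desmin, the chaperones and the assembly factors keep the sarcomere in register and its proteins folded. Desmin (Des) forms the intermediate filaments around the Z-disc, Cryab is a small heat shock protein that binds it, and Bag3 is a co-chaperone that clears damaged Z-disc proteins. Des had 2373, 2421 and 2362 CPM in the WntLOF RV, 2184, 2208 and 2367 CPM in the WntLOF LV, 2303, 2230 and 2546 CPM in the control RV and 2360, 2405 and 2462 CPM in the control LV. Cryab had 462, 393 and 439 CPM in the WntLOF RV, 315, 394 and 372 CPM in the WntLOF LV, 320, 468 and 395 CPM in the control RV and 411, 434 and 441 CPM in the control LV. Bag3 had 225, 226 and 186 CPM in the WntLOF RV, 192, 260 and 179 CPM in the WntLOF LV, 197, 179 and 217 CPM in the control RV and 227, 223 and 290 CPM in the control LV. Des was even in all groups, and Cryab was lower in all WntLOF LV libraries than in all control LV libraries (-0.25, SE 0.13, adjusted p = 0.999, edgeR). The LV groups of Cryab would overlap with WntLOF RV 1 (462 CPM) in place of WntLOF LV 1. For Cryab the difference of the WntLOF effect between RV and LV was 0.38 (SE 0.18, adjusted p = 1.0, unadjusted p = 0.0541, edgeR). In control hearts all 3 RV libraries of Bag3 were below all 3 LV libraries, by -0.32 (SE 0.15, adjusted p = 0.922, edgeR). With the block and the control libraries alone Bag3 was the other called member, at -0.31 (SE 0.08, adjusted p = 0.0447). It was not called without the control pair numbered 2 (-0.31, adjusted p = 0.147), nor with the block on all 12 libraries. In WntLOF hearts the Bag3 groups overlapped. Endothelial and skeletal muscle marker sums were lower in the WntLOF LV, where Cryab was lower, and in the control RV, where Bag3 and Synpo2l were lower and erythroid markers higher, and their part in this was not tested.

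Unc45b, a chaperone of the myosin head, had the smallest p of the 36 genes for WntLOF against control in the RV. Unc45b had 215, 205 and 200 CPM in the WntLOF RV, 220, 211 and 211 CPM in the WntLOF LV, 244, 239 and 243 CPM in the control RV and 221, 229 and 196 CPM in the control LV. All WntLOF RV libraries were below all control RV libraries (-0.23, SE 0.08, adjusted p = 1.0, unadjusted p = 0.0102, edgeR), and the LV groups overlapped. The RV groups would still not overlap with WntLOF LV 1 (220 CPM) in place of WntLOF RV 1. In control hearts the RV libraries were above the LV libraries by 0.17 (SE 0.08, adjusted p = 0.922, edgeR). Smyd1 encodes a lysine methyltransferase needed for myofibril assembly, and its within-group SD was among the lowest of the 36. In the LV 5 of 5 genes of this role had a log2 fold change below 0, with a median of -0.10, and in the RV 3 of 5 were above 0, with a median of 0.02.

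The MuRF ubiquitin ligases mark sarcomere proteins for degradation, and Trim63 encodes MuRF1, a gene known for its rise in muscle atrophy. Trim63 had 244, 174 and 247 CPM in the WntLOF RV, 238, 193 and 260 CPM in the WntLOF LV, 241, 225 and 224 CPM in the control RV and 250, 255 and 196 CPM in the control LV. The groups overlapped in all comparisons. Over Trim54, Trim55 and Trim63 the log2 fold change of WntLOF over control ran from -0.18 to 0.01 in the RV and from -0.15 to -0.02 in the LV, and 0 of 3 passed. WntLOF RV 2 had the lowest Trim54 and Trim63 of the 12 libraries, at 92.2 and 174 CPM.

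**Figure D4:**
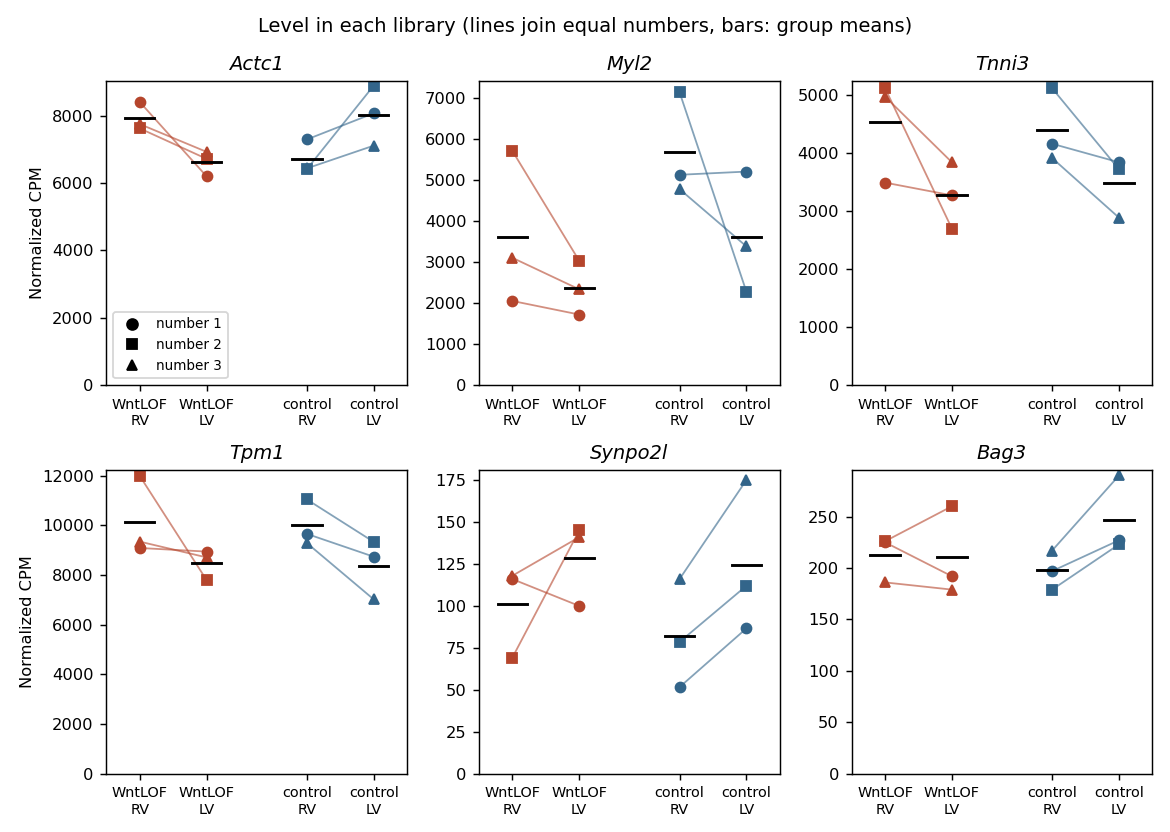
Normalized CPM of 6 genes in each library, with WntLOF in red and control in blue, RV left of LV, symbols for the library number, lines joining equal numbers and bars at the group means. Actc1 is higher in the RV in the 3 WntLOF pairs and lower in the 3 control pairs, Tnni3 and Tpm1 are higher in the RV in 6 of 6 pairs, Synpo2l and Bag3 are lower in the RV in the 3 control pairs, and Myl2 spreads from 1716 to 7131 CPM.

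None of the 36 genes passed the adjusted test for RV against LV in either genotype. edgeR called 0 genes (0% of all genes) in each, and so did DESeq2. At an unadjusted p under 0.05 there were 4 of the 36 genes in WntLOF hearts, against 4.81% of all genes, and 3 of the 36 in control hearts, against 4.89% of all genes (DESeq2 gave 5 of the 36 in each, against 4.17% of all genes in WntLOF hearts and 4.41% in control hearts). The median log2 fold change was 0.02 in WntLOF hearts, with 25 of 36 above 0 and 11 below, against 49.8% and 50.2% of all genes. These counts were 16 above and 20 below with total counts, and 19 above and 17 below without the WntLOF libraries numbered 1. In control hearts it was -0.03, with 15 of 36 above 0 and 21 below, against 51.0% and 49.0% of all genes. Without control LV 2 the control median was 0.03, the opposite sign, with 19 of 36 above 0 and 17 below. With total counts in place of TMM the WntLOF median was -0.04, while the median of all genes moved to -0.06. Intervals lay within 1.5-fold for 29 of 36 genes in WntLOF hearts and 30 of 36 in control hearts, against 60.7% and 59.7% of all genes, and within 2-fold for 34 of 36 in each, against 83.3% and 82.3%.

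Few genes had ventricle groups that did not overlap. In WntLOF hearts Actc1, Lmod3 and Tpm1 were higher in all RV libraries (3 of 36, against 3.36% of all genes), and Myom2 was lower (1 of 36, against 3.70%). In control hearts Unc45b, Mylk3 and Tnni3 were higher (3 of 36, against 6.68%), and Bag3, Mybpc3 and Pdlim5 were lower (3 of 36, against 5.92%). For WntLOF against control the same counts were 2 higher and 1 lower in the RV (3.61% and 3.94% of all genes), and 0 higher and 4 lower in the LV (3.95% each way). Of these, only the Unc45b difference would stay without overlap with the labels of WntLOF RV 1 and WntLOF LV 1 exchanged. No member had a genotype difference without overlap in the same direction in both ventricles (0.387% of all genes did). None had a ventricle difference without overlap in both genotypes, in the same direction (0.516% of all genes) or in opposite directions (0.200%). Whether the RV over LV difference itself differed by genotype is the same test as the difference of the WntLOF effect between RV and LV. It called 0 of 36 members and 0% of all genes (edgeR, and 0 by DESeq2), with 1 of 36 at an unadjusted p under 0.05, against 2.01% of all genes, and 3 of 36 by DESeq2, against 1.39%. Its median over the 36 genes was 0.06, with 24 of 36 above 0 and 12 below, against 50.9% and 49.1% of all genes. The interval lay within 1.5-fold for 21 of 36 genes and within 2-fold for 34 of 36, against 44.6% and 71.0% of all genes.

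Pair by pair, by the library number, 2 members were higher in the RV in 6 of 6 pairs, Tnni3 and Tpm1, a pattern that 3.40% of all genes shared. The RV over LV difference of Tnni3 was 0.09, 0.92 and 0.37 on the log2 scale in the WntLOF pairs and 0.12, 0.46 and 0.44 in the control pairs. That of Tpm1 was 0.02, 0.62 and 0.10 in the WntLOF pairs and 0.14, 0.24 and 0.40 in the control pairs. Both were smallest in the WntLOF pair numbered 1, the pair whose ventricle genes went against its labels. No member was lower in the RV in 6 of 6 pairs, against 2.47% of all genes.

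In the 5 pairs other than WntLOF pair 1, Synpo2l, Mybpc3 and Nrap were lower in the RV (3 of 36, against 9.53% of all genes). For Synpo2l the difference was 0.20, -1.07 and -0.26 in the WntLOF pairs and -0.75, -0.52 and -0.59 in the control pairs, so WntLOF pair 1 was the 1 pair of opposite sign. Mybpc3 and Nrap were likewise higher in the library labelled RV in that pair. Pdlim3 and Nebl were higher in the RV in those 5 pairs and lower in WntLOF pair 1 (with Tnni3 and Tpm1, 4 of 36 were higher in the 5 pairs, against 9.17% of all genes). Over all genes, 1477 were lower in the RV in those 5 pairs and 383 in 6 of 6, and 1421 and 527 were higher. A change of sign in WntLOF pair 1 was therefore not particular to these members. Without the WntLOF libraries numbered 1, the RV over LV difference in WntLOF hearts was 0.63 for Tnni3 (SE 0.19, adjusted p = 0.391, edgeR), 0.37 for Tpm1 (SE 0.16, adjusted p = 0.537, edgeR) and -0.61 for Synpo2l (SE 0.45, adjusted p = 0.775, edgeR), and Actc1 stood at 0.17 (SE 0.13, adjusted p = 0.755, edgeR).

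**Figure D5:**
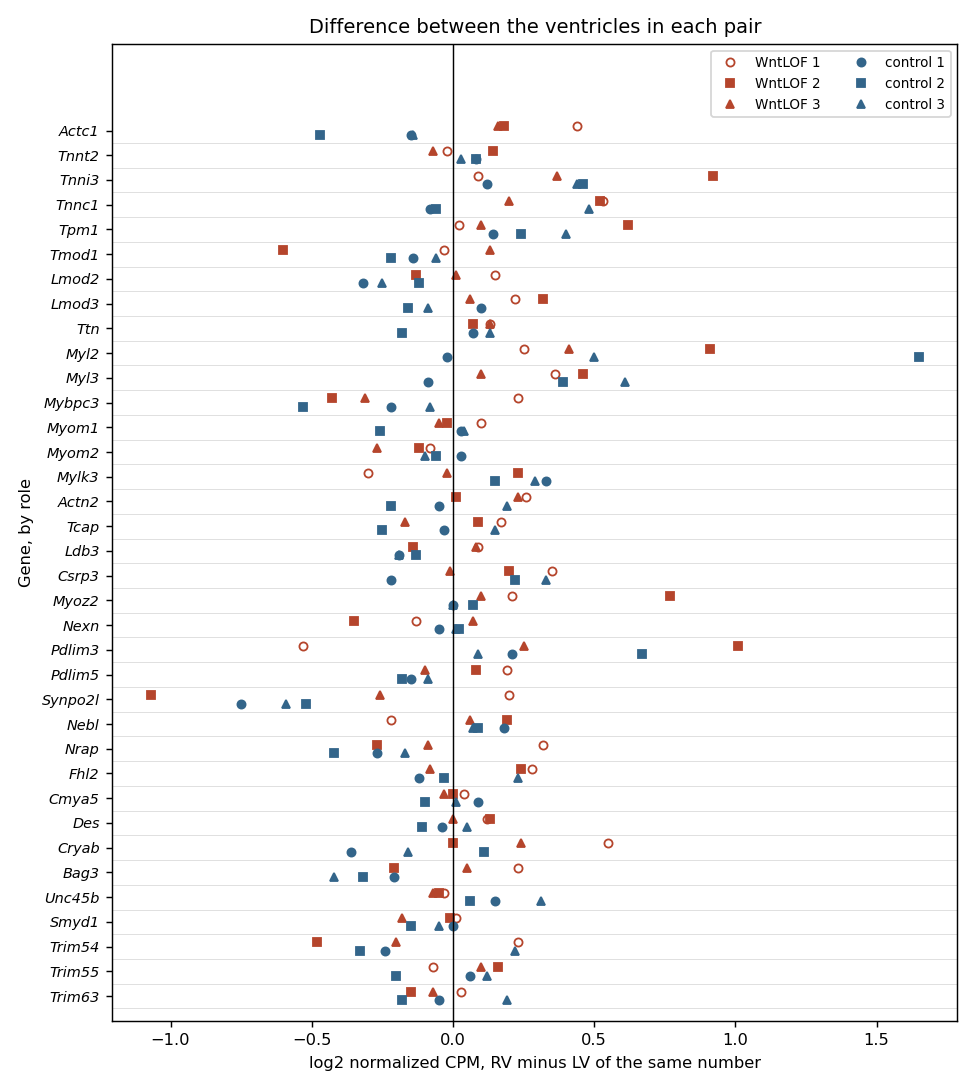
Difference of log2 normalized CPM, RV minus LV of the same number, for the 36 genes in order of role, with WntLOF pairs in red (pair 1 as open circles) and control pairs in blue. Tnni3 and Tpm1 lie right of 0 in all 6 pairs, Synpo2l lies left of 0 in 5 pairs with WntLOF pair 1 on the other side, and Actc1 lies right of 0 in the WntLOF pairs and left of 0 in the control pairs.

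Sarcomere and Z-disc genes outside the 36, 49 of a further 53 with enough counts to test, are described by counts. By edgeR 0 of 49 passed the adjusted test in any comparison. At an unadjusted p under 0.05, 1 was above 0 and 0 below for WntLOF against control in the RV. In the LV 0 were above and 4 below. Of all genes, 2.70% in the RV and 2.85% in the LV were under that p, both directions together. The RV gene was Xirp2, an actin-binding protein of the intercalated disc, which had 1558, 1182 and 1123 CPM in the WntLOF RV and 1016, 1022 and 1109 CPM in the control RV (0.30, SE 0.13, adjusted p = 1.0, edgeR). The LV genes with the smallest p were Tmod3 (-0.38, SE 0.12), Hspb1 (-0.48, SE 0.17) and Pdlim1 (-0.47, SE 0.17), each with an adjusted p of 0.999 by edgeR. For RV against LV, 3 were above 0 and 1 below in WntLOF hearts and 1 above and 4 below in control hearts. Of all genes, 4.81% in WntLOF hearts and 4.89% in control hearts were under that p, both directions together. Those of the 49 in control hearts were led by Xirp2 (-0.43), Tpm3 (-0.33) and Flnc (-0.33). The difference of the WntLOF effect between RV and LV was 0.45 for Xirp2 (SE 0.18, unadjusted p = 0.0309, adjusted p = 1.0, edgeR), the same sign as for Actc1. It was not recomputed without the WntLOF libraries numbered 1. Among the WntLOF libraries, Xirp2 was highest in that labelled RV 1 (1558 CPM) and lowest in that labelled LV 1 (1114 CPM). The same held for Actc1, so the shared sign is not a separate finding. Of 9 muscle transcription factors tested, 0 passed. Myocd, which encodes the SRF cofactor myocardin, had 0.35 for WntLOF over control in the RV (SE 0.14, adjusted p = 1.0, edgeR), and Srf had -0.12 in the LV.

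The authors' deposited table of WntLOF against control listed all 36 genes and 14179 genes in all for each ventricle, with 0 genes at an adjusted p under 0.05 in either. In the authors' deposited table the smallest adjusted p was 0.918 in the RV and 0.841 in the LV, and 3 and 5 of the 36 genes had a p under 0.05. The sign of the log2 fold change in the authors' deposited table was the same as in the fit above for 30 of 36 genes in the RV and 35 of 36 in the LV, and the largest difference between the 2 values was 0.09 in the RV and 0.10 in the LV.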

How the data were processed

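Raw counts per gene, as deposited, were used for all 12 libraries. The submitters' processing notes name featureCounts, Subread and edgeR. Aligner, versions, build and strand setting: not given in the sources used here. Of 41192 rows of counts, 598 repeated a gene with equal counts and were dropped. The authors' deposited comparison tables, 1 for each ventricle, hold log2 fold changes, log2 CPM, p-values, adjusted p-values and signed ratio values, per the file headers. Groups came from the labels. The 36 members, the further lists and the design were chosen with earlier results of these data known.

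The model was an edgeR (4.0.16) robust quasi-likelihood fit in R 4.3.3, with 1 mean per group over 12 libraries. Genes passed filterByExpr by group (15494 genes), TMM factors were 0.961 to 1.04, and 5 contrasts were adjusted by Benjamini-Hochberg over all genes at 0.05. DESeq2 1.42.0 was an alternative test. The SE is the log2 fold change over the square root of F. Library shares used exact permutation tests. The fit was tested on simulated data. At these totals the spread between libraries, and not counting error, sets the precision. On and off states are genes with libraries split by a gap of at least 8-fold, the upper side at 1 CPM or more. This replaced a stricter definition that found 1 gene, after the data were seen. Lengths are the merged bases of all exons that GENCODE M21 (GRCm38) gives for a gene.

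Equal numbers were taken to pair RV and LV because all 6 correlations of deviations exceeded 0.1. In WntLOF hearts unequal numbers 1 and 2 exceeded it as well (0.201 and 0.133), so there the pairing is less certain by the correlations. By the 17 on and off states, the WntLOF pairs shared 17, 16 and 17, and the control pairs 17, 13 and 16. Control pair 2 is the less certain by these states. Between genotypes the correlations were 0.0885, 0.113 and 0.306 in the RV and -0.0430, -0.0903 and 0.233 in the LV, so no pairing was taken. WntLOF LV 1 and control LV 2 had 0.321.

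Values in every library are given for the 4 members with the smallest unadjusted p per comparison and for Ttn, Actc1, Actn2, Tnnt2, Tnni3, Myl2, Mybpc3, Tcap, Csrp3, Cryab, Des, Trim63 and Bag3. Synpo2l and Tpm1 were added after their values were seen. The results were recomputed with RLE size factors or total counts, with no filter or a CPM filter, with DESeq2, with only the groups compared, with replicate blocks, and with each library left out in turn. After seeing the data, fits were added with a Ddx3y term, without the WntLOF libraries numbered 1 and control LV 2, and of control hearts without pair 2 or control LV 2.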

Additional observations from a re-analysis of the deposited data

Results flagged for a closer look

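Actc1 is given here because its WntLOF and control libraries did not overlap in either ventricle and the direction was opposite, higher in the WntLOF RV and lower in the WntLOF LV. The difference of the WntLOF effect between RV and LV was 0.52 on the log2 scale (SE 0.15, adjusted p = 1.0, unadjusted p = 0.00318, edgeR), so it did not pass the adjustment over all genes. Leaving out 1 library at a time gave 0.44 to 0.59, a check that cannot show an exchange of labels between libraries. As given above, the difference was smaller without the WntLOF libraries numbered 1. It was smaller still, with an unadjusted p above 0.05 (edgeR), without those and the control LV library that shared their on and off states. If the labels of WntLOF RV 1 and WntLOF LV 1 were exchanged, the genotype groups would overlap in both ventricles.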

How the results depend on the processing

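No alternative called any of the 36 genes in the 2 comparisons of WntLOF against control, in RV against LV of WntLOF hearts, or in the difference of the WntLOF effect between RV and LV. In RV against LV of control hearts, the replicate block with the control libraries alone called 2 members (Synpo2l at -0.62 and Bag3 at -0.31), and 1 member (Synpo2l at -0.67) without pair 2. All genes called numbered 326 and 67 in these fits, and 9 with the control libraries alone and no block. The replicate block changed no other call of a member.

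The median over the members for WntLOF against control in the LV ran from -0.12 to -0.04 with 1 library left out, and was -0.03 without the WntLOF libraries numbered 1 and control LV 2. The control RV against LV median ran from -0.05 to 0.03 with 1 library left out, was 0.03 without the WntLOF libraries numbered 1 and control LV 2, was also 0.03 in a fit of control hearts that left out control LV 2, and was 0.04 with the block without pair 2. The WntLOF RV against LV median was -0.04 with total counts and 0.01 to 0.08 with 1 library left out. The median of the difference of the WntLOF effect was 0.02 with total counts and 0.03 to 0.16 with 1 library left out. For Myl2 that difference, -0.03, changed sign: it ran from -0.52 to 0.24 with 1 library left out, and was 0.06 without the WntLOF libraries numbered 1 and 0.31 without those and control LV 2. The cause was not tested. No other member fold change given with its SE in the report changed sign. Small differences of other members did: with the block without pair 2, Actn2 was 0.07 against -0.04 in RV against LV of control hearts, and Tcap 0.06 against -0.05. Without control LV 3, the control RV against LV difference was -0.19 for Bag3, 0.22 for Tnni3, 0.15 for Tpm1 and 0.11 for Unc45b. It was 0.21 for Tnni3 without control RV 2, -0.18 for Mybpc3 and 0.40 for Myl2 without control LV 2, and 1.0 for Myl2 without control LV 1. Without WntLOF RV 2, the WntLOF RV against LV difference was 0.22 for Myoz2, 0.12 for Tpm1, 0.13 for Myl2 and -0.03 for Mybpc3, which was -0.32 without WntLOF RV 1. Cryab was -0.16 in the LV without WntLOF LV 1, and its difference of the WntLOF effect was 0.25 without control RV 1. Genes outside the 36 were not recomputed.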

Other observations

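Acta1, which encodes the skeletal alpha-actin that the adult heart makes at a low level, ranged more widely than any of the 36 members. It had 257, 55.4 and 251 CPM in the WntLOF RV, 37.2, 325 and 295 CPM in the WntLOF LV, 53.3, 95.9 and 190 CPM in the control RV and 302, 184 and 506 CPM in the control LV. In the WntLOF pair numbered 1 the library labelled RV was the higher, and in the 5 other pairs the library labelled LV was. Ankrd1, a titin-associated protein known for its rise under load, had 1380, 513 and 1475 CPM in the WntLOF RV, 546, 1062 and 1631 CPM in the WntLOF LV, 656, 654 and 1108 CPM in the control RV and 1133, 1300 and 1330 CPM in the control LV, with the same order within each pair. Both were chosen after their values were seen, and neither passed the adjusted test in any comparison.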
